A study of Mus musculus with 1 sample.

Results

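The genes described here encode the inhibitors of cyclin-dependent kinases (CDKs) and the retinoblastoma, or pocket, proteins. All 10 were chosen by name, as the INK4 inhibitors Cdkn2a, Cdkn2b, Cdkn2c and Cdkn2d, the CIP/KIP inhibitors Cdkn1a, Cdkn1b and Cdkn1c, and the pocket proteins Rb1, Rbl1 and Rbl2. They were read on 17 probe sets, out of 18193 genes and 34945 probe sets that name 1 gene each in the platform annotation. No probe set that names several genes names one of them. The sample was total RNA of a cultured mouse lung cancer line, labelled KR Primary, derived from a KR tumor of the B6/J strain and collected near confluence in RPMI1640 medium with serum. The labels do not spell out KR, name no allele, agent or time, and do not state the genotype of any of the 10 genes. The study here was 1 sample of 1 group on 1 Affymetrix 3′ array, and the line stands for 1 tumor as far as the labels say.

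The INK4 proteins bind CDK4 and CDK6 and keep them from pairing with D-type cyclins, while the CIP/KIP proteins bind complexes of cyclins with CDK2 and also associate with cyclin D complexes. Active CDKs phosphorylate the pocket proteins, which in their unphosphorylated form hold E2F transcription factors and repress genes for DNA replication and mitosis. In lung tumors and other cancers this circuit is a frequent target of mutation, most often through loss of CDKN2A or RB1. Much of the control acts on the proteins, through phosphorylation and degradation, which an RNA array does not measure.

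A probe set reports, in arbitrary fluorescence units, how much labelled RNA bound to a group of short probes for 1 transcript. Each signal was set against 126 probe sets of 112 smell, taste and hair keratin-associated genes. Their median was 6.41. Their 95th percentile, 16.8, is called the background line below, and their highest value, 60.6, the upper limit. The upper limit was set by 1 keratin-associated probe set, and the next highest read 42.2. With 1 array there is no replicate error and no test, so each call describes this array alone. Probe sets bind with unequal efficiency, and the order of signals between genes is therefore no order of RNA amounts. As a check of the label, all 6 simple epithelium markers fixed for it passed the upper limit, from Cldn4 at 1150.2 to Krt18 at 7600.2. Of 5 alveolar and club cell markers 2 passed the line, Sftpb at 28.9 and Sftpc at 21.1, and none the upper limit, and the lung lineage factor gene Nkx2-1 read 7.66. Of 10 measured markers of leukocytes, endothelium, fibroblasts and red cells, 2 passed the line, Col1a2 at 19.3 and Cdh5 at 17.4, and none the upper limit. The endothelial gene Pecam1, at 14.3, was the highest of the other 8.

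Signal above the background line was read for all 10 genes on 1 or more probe sets, where 63.3% of all measured genes passed in the same way. Signal above the upper limit was read for 8 of 10, against 47.5% of all genes. Only Cdkn2a, at 52.2, and Cdkn1c, at 42.8, stayed between the thresholds. Counted by probe set, 13 of 17 were above the line, against 60.9% of all one-gene probe sets, and 10 of 17 above the upper limit, against 41.1%. The median of the highest signals lay 3.76 above the line on the log2 scale, and that of all measured genes 1.52. These genes carried a median of 1.5 probe sets each, against 1 for all genes, and a gene with more probe sets has more chances to pass. Of all genes with 1 probe set, 48.4% passed the line and 32.6% the upper limit. With 2 probe sets the shares were 72.4% and 54.8%, and with 4 they were 87.5% and 71.8%. The 5 genes of this group with 1 probe set were Cdkn1c and all INK4 genes. All 5 passed the line and 3 of them the upper limit.

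**Figure D1:**
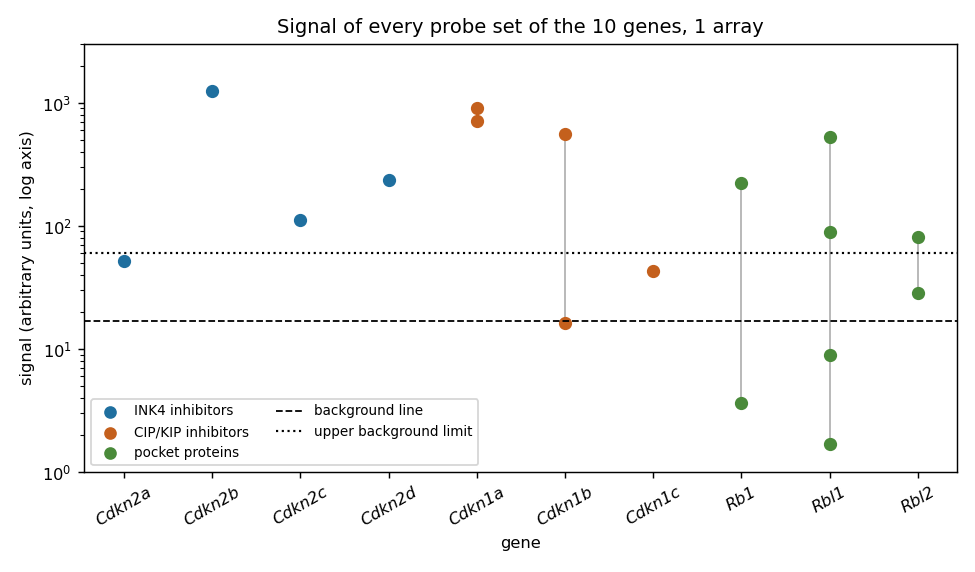
Signal of each of the 17 probe sets (points, log axis, arbitrary units) by gene, with a grey bar joining the probe sets of 1 gene, the background line at 16.8 (dashed) and the upper limit at 60.6 (dotted). Every gene has a point above the line, Cdkn2a and Cdkn1c have none above the upper limit, and Cdkn1b, Rb1 and Rbl1 have points on both sides of the line.

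Among the INK4 genes, Cdkn2b gave clear signal and Cdkn2a a value near background. Cdkn2b, which encodes p15Ink4b, an inhibitor known to be induced by TGF-beta, read 1234 on its only probe set, 1449152_at. That is 73.4 times the line and 20.4 times the upper limit, and higher than 95.4% of the one-gene probe sets of the array. Cdkn2a encodes both p16Ink4a and, in another reading frame from another first exon, p19Arf, which stabilizes p53 by binding its ubiquitin ligase. Its only probe set, 1450140_a_at, read 52.2. This was 3.11 times the line but 0.861 of the upper limit, and 1 of the 126 background probe sets read as high.

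Cdkn2c, which encodes p18Ink4c, read 111 on its only probe set, 6.61 times the line and 1.83 times the upper limit. Cdkn2d, which encodes p19Ink4d, read 234 on its only probe set, 13.9 times the line and 3.86 times the upper limit. No background probe set reached the signals of Cdkn2b, Cdkn2c or Cdkn2d. With a single probe set for each, no second reading on the array bears on these values.

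The ending _a_at in the name of the Cdkn2a probe set is Affymetrix's mark for probes shared by several transcripts of 1 gene, and its signal was not assigned to p16Ink4a or p19Arf. RefSeq places separate starts for the gene on chromosome 4, the first being that of the p19Arf transcript and the second that of p16Ink4a, and Cdkn2b is the next protein-coding gene along the chromosome. Which Cdkn2a start the probe set reads was not analysed here. The 100 bases before each start are shown because Cdkn2a has 1 signal and separate starts, and Cdkn2b adjoins it (RefSeq, GRCm38.p6, 5′ to 3′, with GC boxes in capitals).
Cdkn2a, first start, chr4:89294620-89294719, minus strand: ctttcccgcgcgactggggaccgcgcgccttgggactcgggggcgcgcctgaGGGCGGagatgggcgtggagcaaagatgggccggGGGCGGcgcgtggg
Cdkn2a, second start, chr4:89282193-89282292, minus strand: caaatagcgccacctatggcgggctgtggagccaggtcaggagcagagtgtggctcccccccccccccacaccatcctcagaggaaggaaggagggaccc
Cdkn2b, chr4:89311033-89311132, minus strand: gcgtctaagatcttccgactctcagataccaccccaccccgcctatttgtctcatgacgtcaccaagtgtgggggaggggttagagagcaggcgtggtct

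The stretch before the first Cdkn2a start held 2 GC boxes (GGGCGG, searched on both strands), and those before the second start and before Cdkn2b held none. In the full windows, from 250 bases before to 50 after the start, GC boxes numbered 3 for the first Cdkn2a start, 1 for the second and 1 for Cdkn2b. The box of the second Cdkn2a window and that of the Cdkn2b window lay after the start. GC content was 77.0% for the first Cdkn2a start, 60.3% for the second and 57.7% for Cdkn2b. The ratio of observed to expected CpG pairs was 1.04, 0.442 and 0.722, against a median of 0.384 over 32841 windows of all genes. The first Cdkn2a window was thus richer in CpG than 95.9% of them. No methylation was measured here.

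In RefSeq order, 7 of the 8 protein-coding genes nearest to this pair, 4 on each side, were measured. The line was passed by 3 of them and the upper limit by 1, beside 63.3% and 47.5% of all measured genes. Mtap, a methionine salvage enzyme gene that adjoins Cdkn2a, was the one above the upper limit, and its probe sets read 1412, 1043, 884 and 334. Dmrta1, which adjoins Cdkn2b, read 0.843. Farther out, Zfp352 at 22.3 and Elavl2, a neuronal RNA-binding protein gene, at 23.0 were between the thresholds, and Ifna1 at 1.69, Ifna4 at 5.43, both interferon genes, and Izumo3 at 1.64 were not above the line. The signal of 52.2 for Cdkn2a thus stood between adjoining protein-coding genes, Mtap and Cdkn2b, that passed the upper limit on every probe set, in a stretch whose other measured genes did not. Klhl9, a ubiquitin ligase adaptor gene that had been listed with Mtap and Dmrta1, is not among these neighbours and read 1398.

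Of the CIP/KIP genes, Cdkn1a and Cdkn1b gave signal far above background and Cdkn1c did not. Cdkn1a, which encodes p21, the inhibitor known as a main target of p53, read 905 on 1424638_at and 707 on 1421679_a_at. Both exceeded the upper limit, and the higher was 53.9 times the line. They differed by 0.36 on the log2 scale, or 1.28-fold, a smaller range than in 86.7% of the 4695 genes with 2 probe sets. Cdkn1a was the only one of the 10 genes with several probe sets on which every probe set passed the upper limit.

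Cdkn1a has 2 starts in RefSeq on chromosome 17. The 100 bases before the upstream one are shown because they hold both matches to the p53 decamer motif found in the Cdkn1a windows, in capitals (RefSeq, GRCm38.p6, 5′ to 3′).
Cdkn1a, upstream start, chr17:29090879-29090978, plus strand: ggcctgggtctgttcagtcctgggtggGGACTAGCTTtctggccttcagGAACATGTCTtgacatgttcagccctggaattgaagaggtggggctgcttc

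These matches lay from 73 to 64 and from 51 to 42 bases before that start. The decamer, searched on both strands and matching on both at each place, was present in 8.36% of all windows. The window of the downstream start held none. Among the other windows of this group, only that of Cdkn2d held 1, which overlapped a GC box. Binding of p53 was not measured.

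Cdkn1b encodes p27, an inhibitor held high in resting cells and degraded through SKP2 as cells enter S phase. It read 553 on 1434045_at, 32.9 times the line, and 16.3 on 1419497_at, 0.970 of the line. The lower value was just below the line, and 8 of 126 background probe sets read as high. The probe sets differed 33.9-fold, or by 5.09 on the log2 scale, a wider range than in 92.9% of genes with 2 probe sets. The statement that Cdkn1b was above background thus rests on 1 of its 2 probe sets.

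Cdkn1c encodes p57, an inhibitor of embryonic and differentiating tissues whose gene is imprinted and expressed mainly from the maternal allele. Its only probe set, 1417649_at, read 42.8, 2.55 times the line and 0.707 of the upper limit, close to the second highest background value of 42.2. Of 9 measured genes of its imprinted cluster, 7 passed the line and 6 the upper limit, beside 63.3% and 47.5% of all genes. Cd81, a tetraspanin gene, read 3404, Nap1l4, a histone chaperone gene, 889, and Phlda2, a placental growth regulator gene that is also maternally expressed, 433. Kcnq1ot1, the long RNA that silences Cdkn1c and some other genes listed here, but not Igf2, on the paternal chromosome, passed the line on 4 of 6 probe sets, with signals from 3.90 to 132. Ascl2 at 9.67 and Igf2 at 7.57 were not above the line. The array does not separate the parental alleles.

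Each pocket protein gene passed the upper limit on at least 1 probe set. Of their 8 probe sets, 5 passed the line and 4 the upper limit, shares near the 60.9% and 41.1% of all one-gene probe sets. Rb1, the retinoblastoma gene, read 222 on 1417850_at, 13.2 times the line, and 3.61 on 1444400_at, at which level or higher 86 of 126 background probe sets lay. The 5.94 between them on the log2 scale was a wider range than in 96.0% of genes with 2 probe sets. The probe set above the line is annotated with a RefSeq transcript of Rb1, and the one below it with another record. For Cdkn1a, Cdkn1b and Rbl2 the probe set annotated with a RefSeq transcript was instead the lower one. The array gives no information on mutations or on phosphorylation of the protein.

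Rbl1 encodes p107, the pocket protein of proliferating cells whose own gene is a known E2F target. Its 4 probe sets read 522, 89.6, 8.97 and 1.69. The first pair passed the upper limit and the last pair did not pass the line. The range of 8.27 on the log2 scale, 310-fold, was wider than in 96.3% of the 1093 genes with 4 probe sets. Their median, 49.3, was above the line but below the upper limit.

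The Rbl1 window held the E2F-type motif TTTNGCGC on the coding strand, from 18 to 11 bases before the start. The 100 bases before the start are shown because they hold this match, in capitals (RefSeq, GRCm38.p6, 5′ to 3′).
Rbl1, chr2:157204535-157204634, minus strand: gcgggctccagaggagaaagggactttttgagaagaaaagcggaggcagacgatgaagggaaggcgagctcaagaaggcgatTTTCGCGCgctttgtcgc

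The motif, searched on both strands, was present in 1.38% of all 32841 windows and in 2 of the 11 windows found for 8 of the 10 genes. The other match lay from 244 to 237 bases before the second Cdkn2a start, outside the bases printed above. A match describes the letters only, and E2F binding was not measured. GC boxes were found in 9 of the 11 windows and in 35.7% of all windows.

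**Figure D2:**
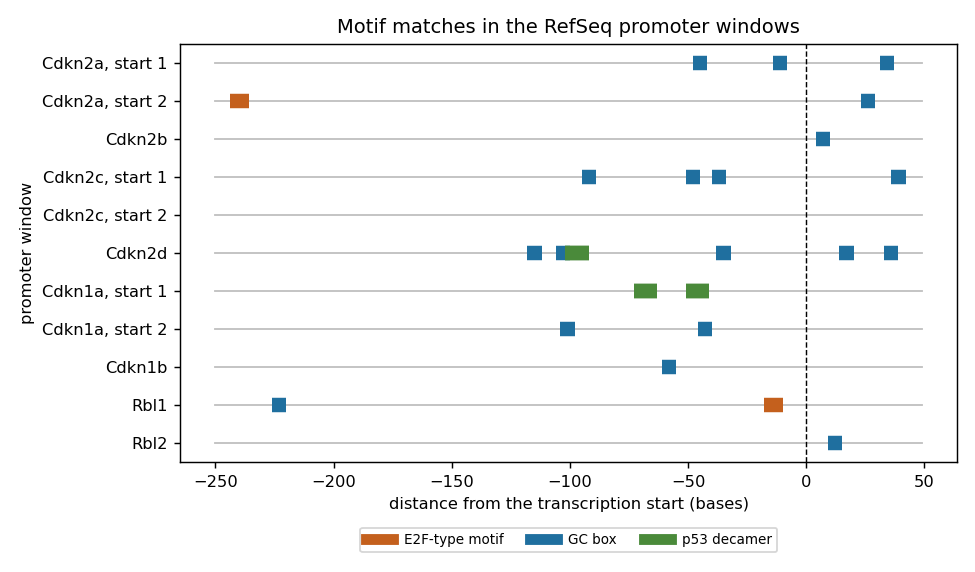
Positions of motif matches in the 11 promoter windows of 8 genes, as distance in bases from the transcription start (dashed line), with 1 grey bar per window. E2F-type motifs (orange) lie just before the Rbl1 start and far upstream of the second Cdkn2a start, GC boxes (blue) lie in 9 windows, and p53 decamers (green) lie before the upstream Cdkn1a start and in the Cdkn2d window.

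Rbl2 encodes p130, the pocket protein that represses cell cycle genes in resting cells as part of the DREAM complex. It read 80.9 on 1425981_a_at, 4.81 times the line and 1.33 times the upper limit, and 28.6 on 1418146_a_at, 1.70 times the line. Both passed the line and 1 the upper limit. They differed 2.83-fold, near the middle of genes with 2 probe sets, of which 47.8% had a smaller range. Among genes with as many probe sets, 48.9% had a lower highest signal than Rbl2, 66.6% a lower one than Rb1 and 70.9% a lower one than Rbl1. Those shares were 90.5% for Cdkn1a and 83.7% for Cdkn1b.

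Probe sets of 1 gene share the sample and are not replicates. Of the 5 genes with several, Cdkn1b, Rb1 and Rbl1 had probe sets on both sides of the line, while Cdkn1a and Rbl2 did not. All 4 probe sets whose names end in _a_at passed the line, and 9 of the 13 with a plain _at ending did. Of the 6 annotated with a RefSeq transcript of the gene, 5 passed the line and 2 the upper limit. Of the 11 with another record or none, 8 passed both. Over all one-gene probe sets, whatever their ending or annotation, 60.9% passed the line and 41.1% the upper limit. Shares of all probe sets by ending or annotation were not analysed here, so these splits have no matching baseline. Where in the transcript each probe set lies was not analysed here, and the part of transcript variants, probe brightness and noise in these ranges was not tested.

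**Figure D3:**
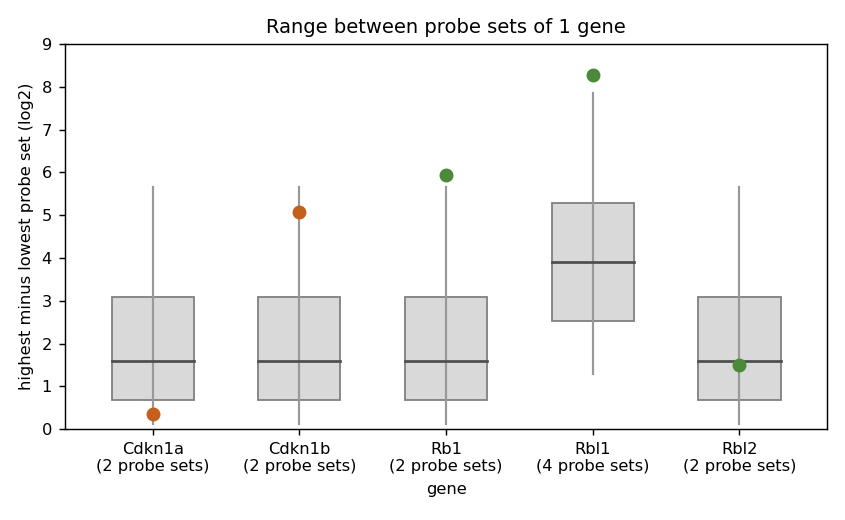
Highest minus lowest probe set of a gene on the log2 scale (points) for the 5 genes with several probe sets. Each grey box gives the quartiles and median, and each whisker the 5th to 95th percentile, over all genes with the same number of probe sets; Rb1 and Rbl1 lie above the whisker, Cdkn1b in its upper part, Cdkn1a near its lower end and Rbl2 close to the median.

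The kinases and cyclins that these inhibitors bind gave signal with few exceptions. Of 8 measured cyclin genes, 7 passed both thresholds, beside 63.3% and 47.5% of all measured genes. The cyclin and kinase lists had a median of 2 probe sets per gene, against 1 for all genes. Among all genes with 2 probe sets, 72.4% passed the line and 54.8% the upper limit. Ccnd1 read from 3164 to 4340 on 3 probe sets and Ccnd2 from 1035 to 5690 on 7, all above the upper limit, while Ccnd3 read 418, 38.0 and 1.95. These are the D-type cyclins that the INK4 proteins displace. Cdk4 passed the upper limit on all 3 probe sets, from 1077 to 1584, and so did Cdk6, from 147 to 1211. The S phase partners of the CIP/KIP proteins read 207 and 142 for Ccne1, 368 for Ccne2, and 966 and 962 for Ccna2. Their kinase gene Cdk2 read 284 and 0.209. Ccna1, a cyclin of the germ line, read 0.101 and was the one measured cyclin not above the line. All 11 genes of the kinase list, which also holds the CDK-activating complex and the CDC25 phosphatases, passed the upper limit, from Cdk1 at 1863 to Cdc25c at 96.3.

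The E2F and DP family, only some of whose members pocket proteins bind, was also above background. The line was passed by all 10 E2F and DP genes, and the upper limit by 9, beside 63.3% and 47.5% of all measured genes. This list and the MuvB list that follows had a median of 2 probe sets per gene. Among all genes with 2 probe sets, 72.4% passed the line and 54.8% the upper limit. The activator genes E2f1, E2f2 and E2f3 read 160, 84.0 and 248 on their highest probe sets, and the repressor genes E2f6, E2f7 and E2f8 363, 356 and 171. E2f4, the main partner of p130 and p107, read 27.4 on its only probe set and was the one below the upper limit, while E2f5, the other such partner, passed it on all 3 probe sets, from 87.3 to 274. Tfdp1, which encodes the dimer partner of E2Fs, read 1275. All 8 genes of MuvB, the core to which p130 and p107 dock in DREAM, and of its later activators passed the line and 7 the upper limit. Rbbp4, a histone-binding subunit also found in other complexes, read 3143, Lin54, the DNA-binding subunit, 205, and Lin52, the subunit that contacts the pocket proteins, 30.8.

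Corepressors and phosphatases of the pocket proteins passed the upper limit in all 15 measured genes, beside 47.5% of all measured genes. Ppp1ca, a catalytic subunit of the phosphatase that dephosphorylates them, read 3713, Rbbp7 3425 and Suv39h2, a histone H3 methyltransferase gene, 107. Of 17 measured genes known as E2F targets, every one was above the line and 16 were above the upper limit, beside 63.3% and 47.5% of all genes. Pcna, the polymerase clamp gene, read 4976, Mcm7, a helicase subunit gene, 2736, Orc1, an origin recognition gene, 95.2, and the thymidylate synthase gene Tyms 31.9 with 1 of 4 probe sets above the line. The median of the highest signals of the E2F targets lay 6.02 above the line on the log2 scale. For the E2F and DP genes it was 3.62, for the kinase list 4.25, for the cyclins 5.24 and for the corepressors 5.44. The corepressors had a median of 3 probe sets per gene and the other lists 2, against 1 for all genes. More probe sets give more chances of a high signal. High signals of targets do not measure E2F activity.

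Regulators of the INK4-ARF locus passed the line in 19 of 21 genes and the upper limit in 17, beside 63.3% and 47.5% of all measured genes. Of the Polycomb genes, whose products silence the locus, Ezh2 read 1921 and Bmi1 994 and 484, while Cbx7 read 19.2 on the highest of 3 probe sets. These were the extremes, and the highest probe sets of the other Polycomb genes listed read from 51.8 to 907. Id1, an inhibitor of transcription factors that activate Cdkn2a, read 2378, and Ets2, one such activator, 2059 on the highest of 3 probe sets. The T-box repressors of the locus were not above the line, with Tbx2 at 4.92 and Tbx3 at most 5.43 over 5 probe sets.

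Regulators of the CIP/KIP inhibitors were above the line in all 18 measured cases and above the upper limit in 15, beside 63.3% and 47.5% of all genes. Of the ubiquitin ligase that degrades p27, the adaptor gene Skp1 read 3341 and 1584, the cofactor gene Cks1b 4673 and 1666, and the scaffold gene Cul1 899, while Skp2, the subunit that recognizes p27, passed the line on all 6 probe sets, from 43.4 to 193. Rbx1, the ring finger subunit, read 28.1 and Rnf123, part of another ligase for p27, 33.1. Ddb1, an adaptor of the ligase that degrades p21 in S phase, read 1907. The median lay 4.42 above the line on the log2 scale, and 5.24 for the INK4-ARF regulators, beside 1.52 for all measured genes. Both lists had a median of 2 probe sets per gene, against 1 for all genes.

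**Figure D4:**
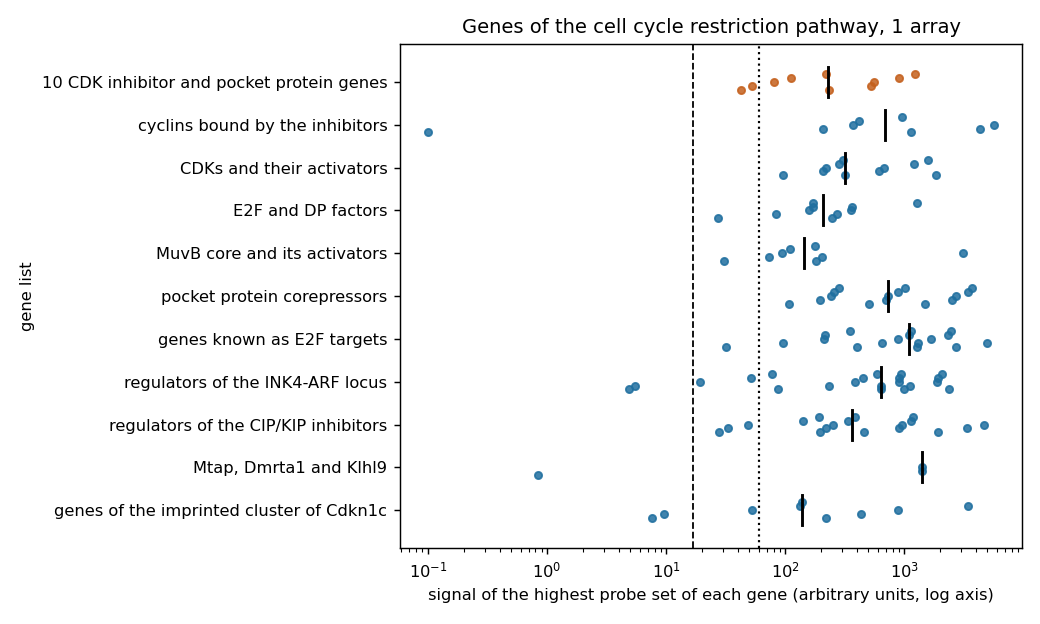
Signal of the highest probe set of each gene (points, log axis, arbitrary units) for the 10 genes (orange) and each list of pathway genes (blue), with the median of each as a black bar, the background line at 16.8 (dashed) and the upper limit at 60.6 (dotted). Points left of the line are Ccna1, Tbx2, Tbx3, Dmrta1, Ascl2 and Igf2.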

How the data were processed

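Total RNA of 1 sample was hybridized as biotinylated cRNA. The authors deposited 1 linear signal intensity for each of 45101 probe sets. Per the submitters' processing notes, they used Affymetrix Expression Console. Its algorithm and any scaling of the array were not given in the sources used here, and no detection call was used. Of the probe sets, 64 were controls, 34945 named 1 gene, 932 several and 9160 none here. RefSeq supplied the symbol by gene ID for 34741 of the one-gene probe sets, whether or not it differed, and 204 kept the platform's name. A gene's call used its highest probe set, and lists are given by count and median. The genes and lists were chosen with earlier results of these data known. All 10 genes were named. From each list names were taken only among its 3 highest and 2 lowest measured genes, or, for the cyclin, CDK, E2F and MuvB lists, among all genes. Bmi1, Cbx7, Cul1, Skp2, Kcnq1ot1 and the outer neighbours of Cdkn2a are named after their values were seen. List genes without a one-gene probe set were not analysed here. With 1 array no test was possible, and that number limits the precision. The code that makes the calls was run on simulated data with planted signals far above the line. That run checks the code only and does not bear on signals near the line. RefSeq promoter windows were matched by symbol for 8 of the 10 genes. Alternatives changed the line, the background set, the probe sets, the symbols and how probe sets were combined. Python 3.11.15, numpy 2.4.6, pandas 2.3.3 and matplotlib 3.10.9 were used.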

Additional observations from a re-analysis of the deposited data

How the results depend on the processing

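The count of 10 genes above the line held with the line at the 90th percentile (14.1) or the 99th (36.9), where 66.7% and 52.8% of all genes passed. It also held with smell receptors alone as background (65.1% of all genes) and with the median probe set of each gene (58.8%). When only plain _at probe sets were used, which left Cdkn2a and Rbl2 unmeasured, 8 of 8 passed, against 60.5% of all genes. With the lowest probe set of each gene, 7 passed the line and 4 the upper limit, and the median over the line fell to 1.49 on the log2 scale. The genes that then lay below the line were Cdkn1b at -0.045, Rb1 at -2.22 and Rbl1 at -3.32 relative to it. Of all genes, 47.0% passed the line under that rule. The matching share for the upper limit was 27.3%. Cdkn2a and Cdkn1c passed the upper limit when it was set by smell receptors alone (19.2) or, in an alternative chosen after seeing the data, by the second highest background probe set (42.2), which gave 10 of 10 genes. These looser limits were passed by 60.8% and 51.4% of all genes. With the median probe set 6 genes passed the upper limit, against 41.0% of all genes. Platform symbols without the update changed none of the counts of these 10 genes. No paired analysis was possible because the series part analysed here holds 1 sample. Signals near the line carry little information on amount.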
